A study of Mus musculus with 4 samples.

Results

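The annexin family was followed through 4 arrays, as all probes whose gene name in the deposited files was Anxa1, Anxa2, Anxa3, Anxa4, Anxa5, Anxa6, Anxa7, Anxa8, Anxa9 or Anxa11. These 10 genes had 14 probes, of 36163 gene names and 55681 probes on the array. Each probe was kept apart. The family was chosen by measured values of these same arrays, because Anxa8 had some of the largest rises with both inhibitors, so its differences between the treated and control aggregates are given as a description. RNA came from the mouse embryonic stem cell line E14Tg2A (strain 129/Ola), and each group had 1 array with RNA pooled from 3 experiments, so no replicate array existed and no p-value was computed. The ES array held untreated ES cells at day 0, grown attached in medium with serum and LIF. The ELA array held untreated epiblast-like aggregates after 2 days as floating aggregates in a serum-free minimal medium, a state close to the primed epiblast. The AZA array held ELA formed over the same 2 days with 50 nM 5-azacytidine, an inhibitor of DNA methyltransferases, and the CHQ array held ELA formed with 100 µM 5-carboxy-8-hydroxyquinoline, an inhibitor of lysine demethylases. The agents and doses differ, so AZA and CHQ are set side by side and not at a matched dose.

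Annexins are cytosolic proteins that bind acidic phospholipids of membranes when calcium rises. Their conserved core repeats carry the calcium sites, and their variable N-terminal tails bind partners, among them small EF-hand proteins of the S100 family. The family is known for linking membranes to the cytoskeleton, for vesicle traffic and for the sealing of damaged plasma membrane. They are best known through annexin A5, which marks dying cells by binding exposed phosphatidylserine, and annexin A1, which dampens inflammation.

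Both Anxa8 probes are identified here because the widest differences of the family rest on them. Each is 60 bases long, on the plus strand of chromosome 14 in build mm9 as the files give it. Probe 1 lies at chr14:34913661-34913720 and probe 2 at chr14:34913148-34913207, and the first 30 bases of each are shown 5′ to 3′. No capitals are used because no part of the probe is singled out.
Anxa8 probe 1: atcctctgatcgtggtctccgagcctgaag
Anxa8 probe 2: gtataccgcccaccctagcattacctctga

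Because one agent acts on the methylation of CpG sites, the start regions of the 3 genes that rose with both inhibitors are also shown, with each CpG in capitals. They are RefSeq promoters of build GRCm38.p6, 250 bases before to 50 bases after the start, read 5′ to 3′ on the gene's strand. The Anxa8 region lies at chr14:34085729-34086028 on the plus strand, the Anxa1 region at chr19:20390622-20390921 on the minus strand and the Anxa2 region at chr9:69453433-69453732 on the plus strand.
Anxa8 promoter: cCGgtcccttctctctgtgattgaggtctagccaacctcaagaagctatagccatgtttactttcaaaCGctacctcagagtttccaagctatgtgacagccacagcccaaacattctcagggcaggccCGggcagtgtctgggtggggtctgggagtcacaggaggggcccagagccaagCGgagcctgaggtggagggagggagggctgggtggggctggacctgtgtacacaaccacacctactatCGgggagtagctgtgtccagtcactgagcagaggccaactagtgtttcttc
Anxa1 promoter: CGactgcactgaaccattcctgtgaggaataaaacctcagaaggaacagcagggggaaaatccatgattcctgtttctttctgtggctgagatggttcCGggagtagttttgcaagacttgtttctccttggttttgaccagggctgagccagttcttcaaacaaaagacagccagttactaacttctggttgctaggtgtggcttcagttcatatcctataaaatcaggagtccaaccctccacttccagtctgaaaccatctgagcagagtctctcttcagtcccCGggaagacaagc
Anxa2 promoter: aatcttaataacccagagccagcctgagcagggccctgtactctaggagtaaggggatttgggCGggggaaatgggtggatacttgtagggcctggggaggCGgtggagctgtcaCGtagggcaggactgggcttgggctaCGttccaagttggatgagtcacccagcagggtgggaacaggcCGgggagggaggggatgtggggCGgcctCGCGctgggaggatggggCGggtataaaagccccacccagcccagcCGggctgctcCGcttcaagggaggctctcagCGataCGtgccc

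The Anxa8 region held 5 CpG, 0.20 of the number that its base composition would give, and 43.6% of the 32851 RefSeq promoters of the same length held as few. The Anxa1 region held 3 CpG (0.18 of that number, 31.4% of promoters with as few) and the Anxa2 region 13 (0.46, 63.7% of promoters with as few). The median promoter held 7. Promoters were matched for 8 of the 10 genes, and none was matched for Anxa3 and Anxa6. Among the other annexins the count ran from 3 in the poorer of the Anxa4 and of the Anxa9 promoters to 36 in the richer Anxa9 promoter, with 25 at Anxa11. Thus the 3 genes that rose with both inhibitors included both CpG-poor and moderately CpG-rich starts. Both strands were searched for 4 motifs. The letters TATAAA stand once in the Anxa1 and once in the Anxa2 region and are in 13.6% of all promoters. The GC box GGGCGG, which 35.7% of promoters hold, stands 3 times in the Anxa2 region. The AP-1 motif TGANTCA, in 7.81% of promoters, stands once in that region. The STAT motif TTCNNNGAA, in 8.30% of promoters, was in none of the 3. The Anxa8 region held none of these 4 letter strings. Methylation was not measured on these arrays.

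Values are log2 intensities after background correction and quantile normalisation of the 4 arrays together, and a difference of 1 is a 2-fold change. A probe was tested where the mean of both arrays reached 7.5 and either array showed it well above background. It was called higher or lower where the difference was at least 1. Probes spotted repeatedly gave a pooled SD between spots of 0.12 to 0.17, so the difference of a single spot between 2 arrays had 2 SD of about 0.49. That spread covers the array surface only, not cultures. The ES and ELA arrays lay on slide 1 and the AZA and CHQ arrays on slide 2, so slide and treatment cannot be told apart in AZA minus ELA or CHQ minus ELA. Well above background were 60.6% (ES), 55.1% (ELA), 69.1% (AZA) and 69.2% (CHQ) of the gene spots, and the part of this depth in the results was not tested. All 14 annexin probes were flagged well above background on all 4 arrays, but some readings were dim. The median local background was 59 (ES), 77 (ELA), 14 (AZA) and 13 (CHQ), and its part in the results was not tested. In pooled RNA, fewer expressing cells and less RNA per cell cannot be told apart.

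Anxa8, a family member known mainly from epithelia, was lowest in ELA and highest in the treated aggregates. Probe 1, which is spotted 10 times, read 10.56 on ES, 7.43 on ELA, 13.98 on AZA and 14.19 on CHQ. The difference of ELA from ES was thus -3.13 (0.114-fold), and AZA and CHQ were 6.55 and 6.75 above ELA, or 93.5-fold and 108-fold. The raw mean spot intensities behind them were 1614.5, 180.1, 15380.8 and 16970.4 in the same order. Probe 2, with 1 spot, read 9.28, 7.43, 11.76 and 11.77, which is 1.86 lower in ELA than in ES, and 4.34 higher than ELA in both AZA (20.2-fold) and CHQ (20.3-fold). With 75th percentile scaling the same 3 differences were -3.90, 7.27 and 7.36 for probe 1 and -2.45, 5.07 and 5.04 for probe 2. The probes shared the sign of these 3 differences, while the rise was smaller with probe 2. In CHQ minus AZA the probes gave 0.21 and 0.01, and both signs turned with E1A spike-in scaling (-0.04 and -0.13). Both probes read 7.43 on ELA, near the median of that array (7.19), so the folds over ELA rest on dim readings and their size is uncertain. Because both inhibitor comparisons are taken against the same ELA array, a low reading there enters both, and ELA minus ES too.

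Set against the ES array, Anxa8 was also higher in the treated aggregates. The choice of the family did not use the ES array, but it did use the treated ones. Probe 1 was 3.42 higher in AZA and 3.63 higher in CHQ, and probe 2 was 2.48 and 2.49 higher. With E1A spike-in scaling these differences were 2.70 and 2.66 for probe 1 and 1.86 and 1.73 for probe 2. These arrays lie on different slides. AZA and CHQ, on the same slide, differed by 0.21 with probe 1 and 0.01 with probe 2, neither of which was called.

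The spots of probe 1 show how tightly each array read it. The usable spots were 9 on ES, 9 on ELA, 10 on AZA and 9 on CHQ. They averaged 10.56 ± 0.09 on ES, 7.43 ± 0.21 on ELA, 13.98 ± 0.16 on AZA and 14.19 ± 0.09 on CHQ (SD between spots). Their ranges were 10.45 to 10.68, 7.07 to 7.74, 13.80 to 14.32 and 14.09 to 14.38, so the spots of ES, ELA and the treated arrays did not overlap, while those of AZA and CHQ did. Spots of 1 array are repeated readings of 1 pool and not replicates of a condition.

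**Figure D1:**
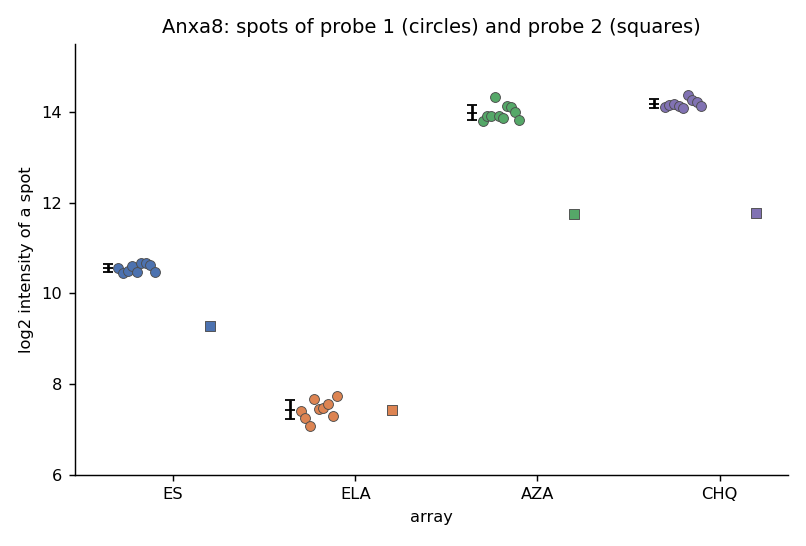
Log2 intensity of every usable spot of the Anxa8 probes on the 4 arrays, with probe 1 as circles (9, 9, 10 and 9 spots), its mean and SD between spots as black bars to the left, and the single spot of probe 2 as a square. The ELA spots of probe 1 lie between 7.07 and 7.74, below all ES spots, and the AZA and CHQ spots lie at 13.80 or above.

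Anxa2, which forms a tetramer with the EF-hand protein S100a10 at the plasma membrane, moved in the same directions over a smaller range. Its probe (chr9:69339532-69339591, plus strand, mm9) read 14.57 on ES, 12.56 on ELA, 15.28 on AZA and 15.05 on CHQ. ELA was lower than ES by 2.01 (0.248-fold), and with E1A spike-in scaling the difference was -2.91 (0.133-fold). AZA was higher than ELA by 2.71 (6.56-fold) and CHQ by 2.48 (5.60-fold). The treated arrays differed from each other by -0.23 (CHQ minus AZA). Against ES they read 0.70 (AZA) and 0.48 (CHQ), neither called, and the sign turned with E1A spike-in scaling (-0.30 and -0.82) and, for CHQ, with 75th percentile scaling (-0.14), so no direction against ES is given.

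Anxa1, the annexin that signals through formyl peptide receptors to limit inflammation, was low in ELA and differed between AZA and CHQ. Probe 1 (chr19:20447938-20447997, minus strand) read 12.90 on ES, 9.48 on ELA, 11.30 on AZA and 12.86 on CHQ. Probe 2 (chr19:20449722-20449781, minus strand) read 11.04, 8.39, 9.74 and 10.99. ELA was lower than ES by 3.43 with probe 1 and by 2.65 with probe 2 (-4.20 and -3.26 with E1A spike-in scaling). AZA was higher than ELA by 1.82 and 1.34, and CHQ by 3.38 (10.4-fold) and 2.60. CHQ was higher than AZA by 1.56 and 1.26, a difference within slide 2, and it lay within 0.05 of ES with both probes in these values. That closeness depended on the scaling, since CHQ minus ES was -1.02 and -0.83 with E1A spike-in scaling. AZA stayed below ES, with differences of -1.61 and -1.31 (-2.37 and -1.96 with E1A spike-in scaling).

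Anxa3, best known from neutrophils and vessel-forming cells, went the other way with AZA. Its probe (chr5:97253925-97253984, plus strand) read 11.40 on ES, 9.06 on ELA, 7.68 on AZA and 9.39 on CHQ. ELA was 2.35 lower than ES (-3.01 with E1A spike-in scaling), AZA a further 1.37 lower than ELA, and CHQ 0.33 above ELA, which was not called. CHQ was 1.71 higher than AZA on the same slide. Both treated arrays stayed lower than ES, AZA by 3.72 and CHQ by 2.01, unlike those of Anxa8. With E1A spike-in scaling these differences were -4.46 and -2.78, and AZA minus ES was -4.39 with 75th percentile scaling.

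Anxa4, Anxa5 and Anxa6 moved little between ES and ELA. Anxa4, an annexin of secretory epithelia (chr6:86686883-86686942, minus strand), read 11.43, 11.80, 12.16 and 12.72 on ES, ELA, AZA and CHQ. Its difference of 0.92 in CHQ minus ELA lies just outside the threshold of 1. Anxa5, the phosphatidylserine-binding annexin used to stain dying cells (chr3:36348065-36348124, minus strand), read 11.19, 10.95, 11.55 and 12.04, and its 1.09 in CHQ minus ELA lies just inside. With E1A spike-in scaling that difference was 0.94 and not called. Anxa6, the only annexin with a doubled core, which acts in endocytosis and membrane organisation (chr11:54792616-54792675, minus strand), read 14.04, 13.59, 13.62 and 12.52. It was the only member called lower in CHQ than in ELA (by 1.07) and the only member called lower in CHQ than in AZA (by 1.11).

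Anxa7, Anxa9 and Anxa11 gave no called difference between ES and ELA, between ELA and a treated array or between AZA and CHQ. Anxa9 was too dim to be tested in AZA minus ELA and CHQ minus AZA, and Anxa11 probe 2 in CHQ minus ELA and CHQ minus AZA. Anxa7, known for membrane fusion and for binding sorcin, read 12.69, 12.35, 12.49 and 11.96 with probe 1 (chr14:21275441-21275500, minus strand) and 10.03, 9.97, 9.72 and 9.76 with probe 2 (chr14:21275240-21275299, minus strand), with ranges of 0.73 and 0.31. These probes differed in sign in AZA minus ELA (0.14 and -0.25) and in CHQ minus AZA (-0.53 and 0.04), and no direction is given for Anxa7. Anxa9 (chr3:95100039-95100098, minus strand), a divergent member that has lost most calcium-binding residues, read 7.45, 7.59, 7.37 and 7.46, a range of 0.22 close to the filter. Anxa11, which tethers RNA granules to lysosomes, likewise had probes that disagreed. Probe 1 (chr14:26706231-26706290, plus strand) read 13.69, 13.76, 14.54 and 13.73, and probe 2 (chr14:26694168-26694227, plus strand) read 8.20, 7.75, 7.32 and 7.12. They differed in sign in ELA minus ES (0.07 and -0.46) and in AZA minus ELA (0.78 and -0.43), so no direction is given for Anxa11. Against ES, probe 2 was called lower in CHQ, at -1.08, while probe 1 differed by 0.04. In 5 other settings the probe 2 difference was -1.22 to -1.95. It stayed called in 1 of them, because in the rest its mean fell below 7.5 and it was not tested. E1A spike-in scaling put probe 1 at -1.05, called lower. Of the annexins outside the list, Anxa13 was not well above background on ES and ELA, and Anxa10 not on ELA. Anxa10 was 1.33 higher in CHQ (8.22) than in AZA (6.89).

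**Figure D2:**
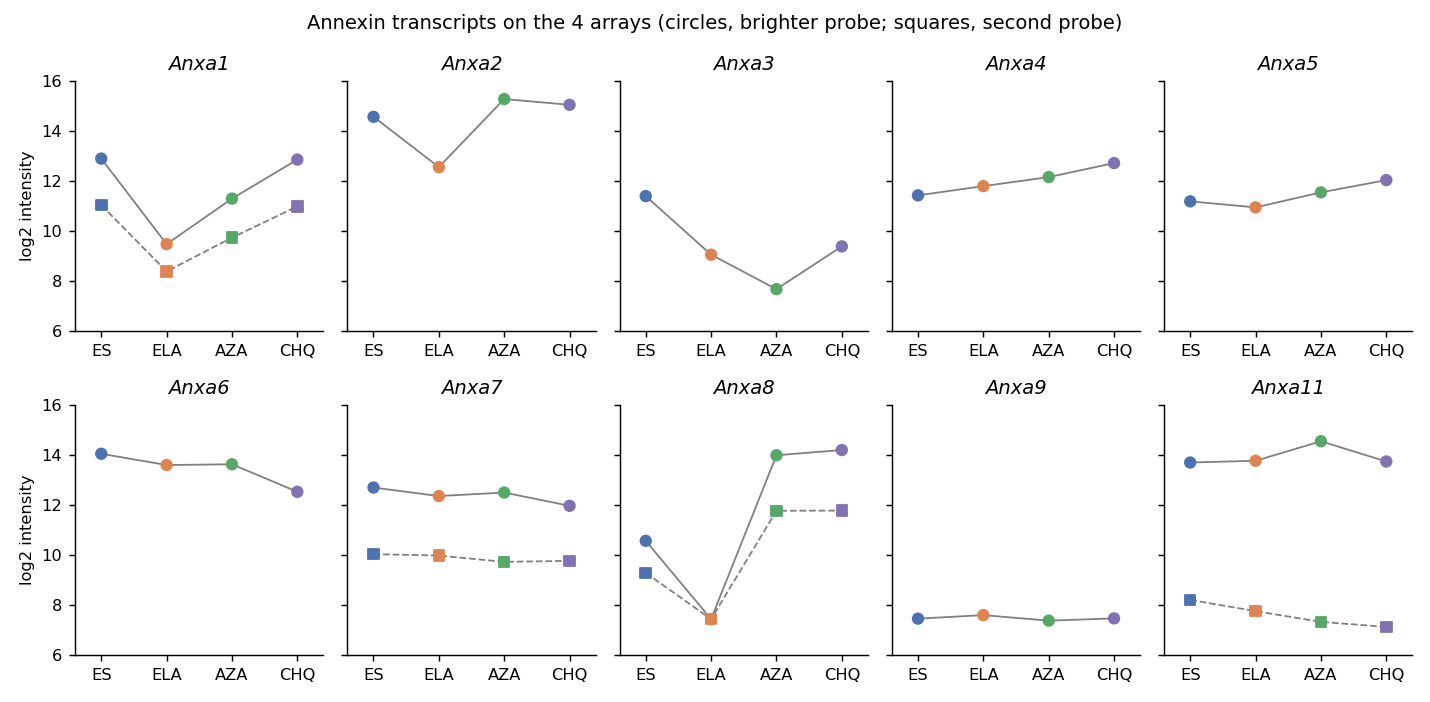
Log2 intensity of each annexin probe on the ES, ELA, AZA and CHQ arrays, 1 point per array, with the brighter probe as circles on a solid line and the second probe, where the array has one, as squares on a dashed line. Anxa1, Anxa2 and Anxa8 dip on ELA and are higher on both treated arrays, Anxa3 is lowest on AZA, and Anxa9 stays between 7.37 and 7.59.

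Counted over the family, ELA minus ES had 6 of 14 tested probes called lower (42.9%) and 0 called higher. The lower probes were those of Anxa1, Anxa2, Anxa3 and Anxa8, with both probes of Anxa1 and of Anxa8. Over all 25166 probes tested, 5.63% were called lower and 4.07% higher. The median difference of the 14 annexin probes was -0.46, against -0.02 over all tested probes. The choice of the family through Anxa8 used the ELA array, so a low Anxa8 reading there was built into these values. Without Anxa8, 4 of 12 tested probes were called lower and the median was -0.40. The counts are a description. Scaling to the E1A spike-in probes moved the median of all probes to -0.66 and the split to 1.18% higher and 22.4% lower, and then 8 annexin probes were called lower, the added ones being Anxa6 (-1.29) and Anxa7 probe 1 (-1.10). No annexin probe was called higher under any scaling run.

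In AZA minus ELA, 5 of 13 tested probes were called higher (38.5%), those of Anxa1, Anxa2 and Anxa8, and 1 lower (7.69%), that of Anxa3. Over all 25330 tested probes 14.1% were called higher and 12.2% lower, and nothing is read from the family's count because this contrast chose it. In CHQ minus ELA, 6 of 13 were called higher (46.2%), those of Anxa1, Anxa2, Anxa5 and Anxa8, and 1 lower, that of Anxa6. The shares over all 25310 tested probes were 14.2% higher and 12.7% lower, and here too the count is a description. Scaling by the 75th percentile changed that split to 13.6% and 19.8%, and E1A scaling to 11.4% and 20.7%, with Anxa5 then at 0.94 and not called. The medians of all 14 annexin probes, tested or not, were 0.48 (AZA) and 0.63 (CHQ), beside -0.03 and -0.04 over all 55122 probes. Without Anxa8 the medians were 0.25 and 0.15, with 3 and 4 of 11 tested probes called higher. Over the tested probes alone the medians of the array were -0.10 and -0.11. They were -0.22 and -0.28 with 75th percentile scaling and -0.20 and -0.35 with E1A scaling. AZA minus ELA and CHQ minus ELA share the ELA array, so their likeness is not evidence of a common response.

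CHQ minus AZA compares arrays of the same slide and does not use the ELA array. There 3 of 12 tested probes were called higher, both of Anxa1 and that of Anxa3, and 1 lower, that of Anxa6. Over all 25363 tested probes, 5.02% were called higher and 4.65% lower, and 3.97% and 6.28% with E1A scaling, which put the median of all tested probes at -0.19, in place of -0.03. The median of all 14 annexin probes was 0.07, against -0.02 over all 55122 probes.

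Against ES, a comparison across slides, 2 of 13 tested annexin probes were called higher in AZA, both of Anxa8, and 3 lower, both of Anxa1 and that of Anxa3. Over all 25481 tested probes 10.7% were called higher and 9.3% lower. In CHQ minus ES, 3 of 13 were called higher, both of Anxa8 and that of Anxa4 (1.29), and 3 lower, those of Anxa3, Anxa6 (-1.52) and Anxa11 probe 2, beside 11.9% higher and 11.4% lower over all 25441 tested probes. The Anxa4 call was lost with E1A spike-in scaling (0.44), and Anxa6 was then at -2.55. Anxa11 probe 2 stayed called in 1 of 5 other settings and was too dim to test in the rest. E1A scaling added lower calls for Anxa6 (-1.31) and Anxa11 probe 2 (-1.62) in AZA minus ES, and for Anxa1 probe 1 (-1.02), Anxa7 probe 1 (-1.64) and Anxa11 probe 1 (-1.05) in CHQ minus ES.

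**Figure D3:**
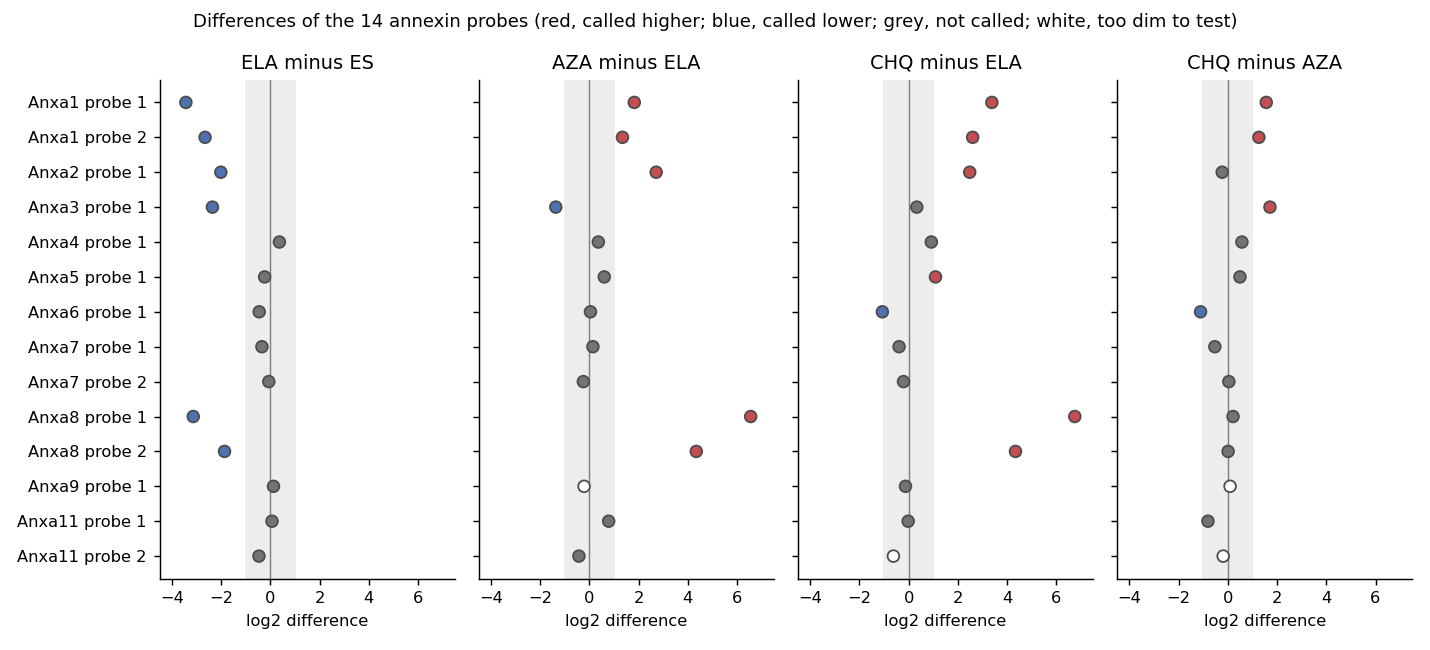
Log2 difference of each of the 14 annexin probes in the 4 comparisons, with red for called higher, blue for called lower, grey for not called and white for probes too dim to test, and the grey band marking differences smaller than 1. The 6 called probes of ELA minus ES are all lower, and the Anxa8 probes lie between 4.34 and 6.75 in both inhibitor comparisons.

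The partners of the annexins were read by the brightest probe of each gene. Of the 6 S100 and EF-hand partners, 5 were called lower in ELA than in ES and 0 higher, with a median of -1.68, beside 5.63% lower, 4.07% higher and a median of -0.02 over all tested probes. S100a10, which bridges a pair of Anxa2 molecules, read 13.77 on ES, 11.33 on ELA, 13.75 on AZA and 13.51 on CHQ. It was 2.44 lower in ELA and then 2.42 (AZA) and 2.18 (CHQ) higher than ELA, close to the steps of Anxa2. S100a11, the partner of the Anxa1 tail, read 12.38, 10.32, 12.19 and 12.52, so it was 1.87 higher in AZA and 2.20 in CHQ than in ELA. Unlike Anxa1, it differed by only 0.33 between CHQ and AZA.

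S100a6, which binds several annexins including Anxa2 and Anxa11, read 15.07, 12.13, 11.65 and 14.29. It was 2.16 higher in CHQ than in ELA and 2.65 higher than in AZA, but differed by -0.49 in AZA minus ELA. Sorcin (Sri), a calcium sensor that binds Anxa7 and Anxa11, read 12.36, 11.06, 12.03 and 12.02, 1.30 lower in ELA and 0.97 above it with either agent, just short of a call. Pdcd6, the other EF-hand partner of Anxa7 and Anxa11, had no called difference, with values of 14.53, 14.24, 14.66 and 14.41. S100a4, a further Anxa2 partner, was dim, at 8.81, 7.64, 7.14 and 7.48. In all, 2 of 5 tested partners were higher in AZA than in ELA, beside 14.1% of all tested probes, and 3 of 6 in CHQ, beside 14.2%. None of the tested partners was lower in either, beside 12.2% and 12.7%. The list was chosen with earlier results known, and its counts are a description.

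**Figure D4:**
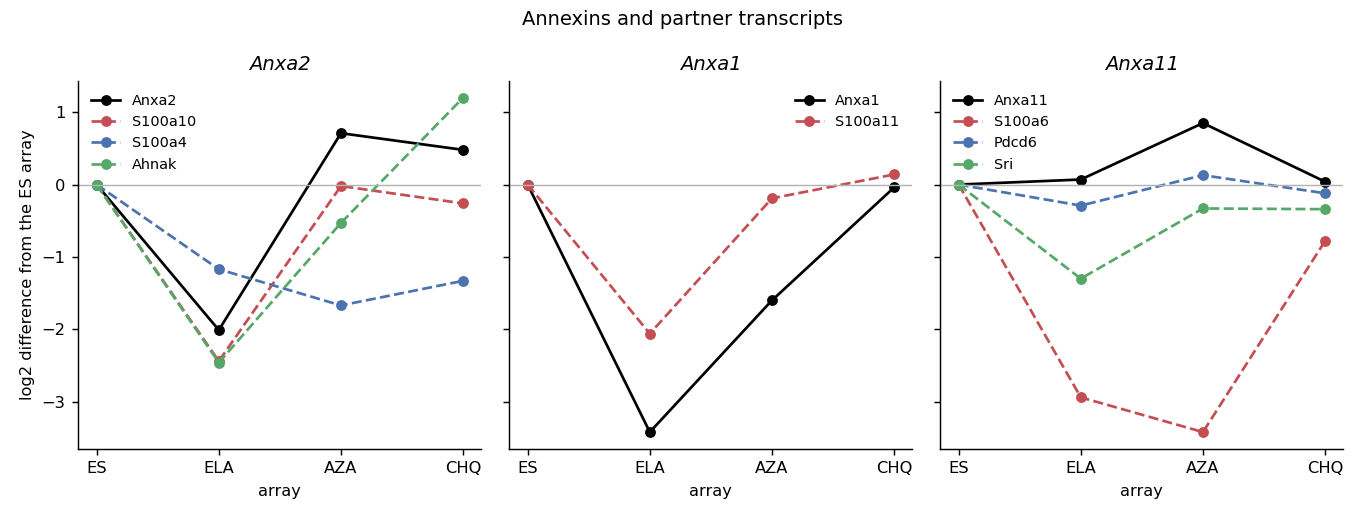
Log2 difference from the ES array, 1 point per array, of Anxa2, Anxa1 and Anxa11 (solid black, brighter probe) and of partner transcripts (dashed), each gene set to 0 on ES. Anxa2 and S100a10 fall by 2.01 and 2.44 on ELA and lie within 1 log2 unit of ES on both treated arrays in these values, S100a6 is far lower on AZA than on CHQ, and Pdcd6 stays close to 0.

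Genes that act with annexins at the cell surface were called in part, in both directions. Of the 5 plasminogen-system genes, 1 of 3 tested was lower in ELA than in ES (5.63% of all tested probes), 1 of 2 higher in AZA (14.1%) and 2 of 3 higher in CHQ (14.2%), too few to read against those shares. Among them the urokinase receptor Plaur read 12.43 on ES, 9.65 on ELA, 11.19 on AZA and 10.79 on CHQ, 2.78 lower in ELA and 1.54 and 1.14 higher with AZA and CHQ. The tissue activator Plat, which uses Anxa2 as a docking site, was 1.51 higher in CHQ than in ELA and 2.42 higher than in AZA. The Anxa1 receptors Fpr1 and Fpr2 were not well above background on any array. Of the 8 membrane repair genes, 6 were tested in each comparison. In ELA minus ES 1 was lower, in AZA minus ELA 1 was higher and 2 lower (14.1% and 12.2% of all tested probes), in CHQ minus ELA 1 was higher (14.2%), and in CHQ minus AZA 3 were higher (5.02%). Ahnak, a giant scaffold that binds the Anxa2 and S100a10 complex, read 12.85, 10.39, 12.32 and 14.05, so that it was lower in ELA than in ES and higher than ELA with both agents. Of its other 3 probes, 2 gave the same signs in these comparisons and 1 the opposite ones. Dysferlin (Dysf), the calcium sensor of repair, was 1.63 lower in AZA than in ELA and 1.37 higher in CHQ than in AZA, and the protease subunit Capn2 gave -1.62 and 1.13 in the same comparisons. Of the 5 scramblase and lipid asymmetry genes, which control the phosphatidylserine that annexins bind, Xkr8 was called, 1.29 lower in ELA than in ES and 1.47 higher in AZA than in ELA.

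By the distance between profiles over the 4 arrays, each centred on its own mean, the nearest of 14330 genes to Anxa8 probe 1 was Ephx1 at 0.39. Ephx1, an epoxide hydrolase of detoxification, read 11.67, 8.87, 15.09 and 15.08, but its second probe gave far smaller differences (-0.35, 1.10 and 1.14 for ELA minus ES, AZA minus ELA and CHQ minus ELA). Nkx2-9, a homeobox gene, followed at 0.80 with 9.36, 6.90, 12.37 and 13.32. Zscan4e (1.05), Mlana (1.06) and Zscan4f (1.21) came next. Zscan4e and Zscan4f are near-identical copies whose probes may share transcripts, and they were not well above background on ELA. For Anxa2 the nearest were Brp44l (0.12), Syce1 (0.13), Hspb1 (0.23), Zfp296 (0.24) and Lifr (0.24). Lifr, the LIF receptor, had 2 further probes that gave -1.21 and -1.95 in ELA minus ES, beside -2.25 for the probe ranked here, and 0.56 and 0.61 in CHQ minus ELA, beside 2.44. These are distances over 4 arrays, and the likeness is a description.

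Markers of cell state also differed between these arrays, and their part in the annexin differences was not tested. Counts of called markers are to be read beside the shares over all tested probes, which were 5.63% lower and 4.07% higher in ELA minus ES, 14.1% higher and 12.2% lower in AZA minus ELA, and 14.2% higher and 12.7% lower in CHQ minus ELA. All 8 ground state markers were lower in ELA than in ES (median -2.67), all 8 were higher in AZA than in ELA (3.81) and 7 in CHQ (2.70). Anxa1, Anxa2 and Anxa8 were called in these directions in all 3 comparisons, and no other member was. Of the 4 primed-state markers, 2 were higher in ELA than in ES (median 0.93), 3 were lower in AZA than in ELA (-1.63) and 2 lower in CHQ (-0.68). Fgf5 was called in all these comparisons (11.61 on ES, 14.47 on ELA, 11.94 on AZA and 13.33 on CHQ), whereas Otx2 was called in none of them and Pou3f1 differed by 0.30 in CHQ minus ELA. Nanog read 15.03, 12.53, 15.39 and 12.54 with its brighter probe, and its second probe disagreed in sign. The summed level of the 10 endoderm markers ran from 16.23 to 16.93, of which 7, 6, 10 and 9 were well above background on ES, ELA, AZA and CHQ. Among them Gata6 (8.06 on AZA and 9.89 on CHQ), Sox17 (7.76 and 9.51) and Afp (6.88 and 8.56) were well above background on the treated arrays alone. Dab2 (-1.47 and -1.34) and Foxa2 (-1.81 and -1.01) were called lower than ELA in AZA and CHQ, while the other Foxa2 probe gave -0.71 and -0.39. Those sums were led by Sparc, which read 16.09 to 16.83, so they say little of the dimmer markers. Of the tested endoderm markers, 0 of 6 were higher and 2 lower in AZA minus ELA, and 2 of 8 were higher and 2 lower in CHQ minus ELA.

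The summed level of the 5 surface epithelium markers ran from 12.61 to 13.58, all well above background on all arrays, and Krt5 rose from 7.51 on ELA to 9.24 on AZA and 11.47 on CHQ with one probe, while its other probe differed by -0.54 and -0.17. Krt17 (11.30 on ES and 8.31 on ELA) and Sfn (11.97 and 9.33) were called lower in ELA than in ES but differed from ELA by 0.24 and -0.65 in AZA and by -0.36 and -0.30 in CHQ. Trp63, at 12.19 to 12.35 on the 4 arrays, made up much of this sum. The 8 trophoblast markers summed to 15.09 to 16.93, with 7, 5, 6 and 7 of them well above background. Elf5 was so on CHQ alone, at 6.53, and Cdx2 on ES alone. Of 5 tested, 1 was lower in ELA than in ES (5.63% of all tested probes), 1 higher and 2 lower in AZA than in ELA (14.1% and 12.2%), and 2 higher and 2 lower in CHQ than in ELA (14.2% and 12.7%). Tfap2c, at 12.65, 9.79, 11.90 and 13.23, was called in the same directions as Anxa1, whereas Krt8 (-1.80 and -1.20) and Krt18 (-1.49 and -2.23) were lower than ELA in AZA and CHQ. The 7 fibroblast markers summed to 14.27 to 15.38, with 6, 6, 7 and 7 above background, and Pdgfra not so on ES and ELA. Of 6 tested, 1 was higher and 3 lower than ELA in AZA, and likewise in CHQ, beside the same array-wide shares. Acta2 (from 10.83 in ELA to 6.97 with AZA and 6.88 with CHQ) and Col1a2 (from 9.56 to 7.69 and 7.57) were lower with both agents, while Vim was 2.01 higher in CHQ. The 3 neural markers summed to 11.98 to 13.58, all above background except Pax6 on CHQ. Of 2 tested against ELA, Nes was called lower in AZA (-1.67) and CHQ (-1.24).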

How the data were processed

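Total RNA of 4 groups, 1 array each, was hybridised as Cy3-labelled cRNA to a 1-colour Agilent array. The authors deposited scanner files whose mean spot intensity and local background intensity are not normalised between arrays, read per the file headers with Feature Extraction 10.7.3.1 (the submitters' processing notes name 9.1). The authors also deposited a value table of log2 values, background-corrected and quantile-normalised with limma per their methods, and it correlated with the values used here at r = 0.991 to 0.992.

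The mean spot intensity was corrected with normexp on the local background (offset 50) and quantile-normalised over the 4 arrays with limma 3.58.1 in R 4.3.3. Control spots and spots with an outlier flag took part in these steps. They were dropped afterwards, and a probe's remaining spots were averaged as log2 values. The 55122 probes with a usable spot on every array were then used, and 559 were left out. No gene spot was saturated. The offset makes the differences of dim probes smaller. Call sizes (a log2 difference of at least 1 and a mean of at least 7.5) take their numbers from the study's methods. The study also required a p-value, and the mean of 7.5 is a lower bar here, because the median value was about 1 log2 unit higher on this scale (7.22 against 6.23 on ES). No p-value was computed with 1 array per group, and so few arrays limit the precision. The 10 genes, the partner and marker lists, the call rule and the alternatives were chosen with earlier results of these data known. All 14 annexin probes are named. The nearest genes are the 5 with the smallest Euclidean distance to the brightest probe of Anxa8 or Anxa2. Promoters are from RefSeq (GRCm38.p6), used apart from the mm9 probe positions, whose exon or UTR was not analysed here. An array with a SWI/SNF knockdown was not analysed here. The alternatives were other scalings (75th percentile, 7 E1A spike-in probes), the deposited value table, other background settings, other filters and a log2 threshold of 1.5.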

Additional observations from a re-analysis of the deposited data

How the results depend on the processing

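Of 23 called annexin differences between ES and ELA, ELA and the treated arrays, or AZA and CHQ, 23 kept their sign and 22 stayed called with 75th percentile scaling, E1A spike-in scaling, the deposited value table, no background correction and a normexp offset of 16. The exception was Anxa5 in CHQ minus ELA (0.94 with E1A scaling). Of all 56 differences, 8 changed sign in some setting, none of them called. The same settings were run on AZA minus ES and CHQ minus ES, chosen after seeing the data. There all 11 called differences kept their sign and 9 stayed called, the exceptions being Anxa4 in CHQ minus ES with E1A scaling (0.44) and Anxa11 probe 2, which stayed called in 1 of 5 settings (-1.22 to -1.95). That probe lost its calls through the filter on the mean and not through a smaller difference. At a log2 threshold of 1.5 the called probes were 2 in place of 4 in CHQ minus AZA, 4 in place of 6 in AZA minus ELA and 5 in place of 7 in CHQ minus ELA, since fewer differences reach a higher threshold. The counts were the same without the filter on dim probes and with both arrays required above background. Anxa8 probe 1 read 7.27 (AZA minus ELA) and 7.36 (CHQ minus ELA) with 75th percentile scaling, and 7.14 and 7.38 in the deposited table. The mean over the Anxa8 probes was 5.44 and 5.55 in these comparisons. With E1A scaling, ELA minus ES was -4.20 and -3.26 for the Anxa1 probes, -2.91 for Anxa2 and -3.01 for Anxa3, AZA minus ES was -2.37 and -1.96 for the Anxa1 probes and -4.46 for Anxa3, and CHQ minus ES was -2.78 for Anxa3 and -2.55 for Anxa6. The cause of these moves was not tested. No paired analysis was possible because each group had 1 array and the labels carry no shared replicate numbers, and for the same reason no replicate could be left out. The error of a difference between cultures is unknown.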
